A study of Mus musculus with 6 samples.

Results

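The mitosis and cytokinesis genes are 36 mouse genes that carry a cell from the onset of mitosis to the separation of its daughters, and 35 of them were measured among 18193 named genes. They were taken by symbol from the platform annotation, and where a gene had several probe sets, the one brightest on average over 6 arrays stands for it. Ccnb1, the gene of cyclin B1, was not analysed here because no single-gene probe set carried its symbol. RNA came from bone marrow erythroblasts of 3 mice with a knockout (KO) of miR-144/451, and of 3 wild-type (WT) mice, with arrays titled KO 493, KO 548, KO 551, WT 497, WT 504 and WT 550. In both groups the cells were positive for Ter119 and CD71 and high in forward scatter, that is, large cells of the erythroid lineage that display the transferrin receptor. They were fresh marrow cells sorted directly into Trizol LS, with 1 Affymetrix Mouse Genome 430 2.0 array per mouse; the sources used here give neither strain nor age, and the comparison asks what differs in erythroblasts without the locus.

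Erythroblasts divide several times while they fill with haemoglobin, and they stop dividing before the nucleus is expelled. In dividing cells, genes of mitosis are transcribed in a late wave in G2. This wave depends on the MuvB complex with B-MYB and FOXM1, and in resting cells the DREAM complex silences the same genes through a promoter element called CHR (cell cycle genes homology region). Their products build the spindle, hold anaphase back until every chromosome is attached, and then close the cleavage furrow. The deleted locus encodes microRNAs that are abundant in red cell precursors. They are shown because their loss defines the KO group, with the seed (bases 2 to 8) in capitals and positions on GRCm38.p6 from RefSeq.
mmu-miR-144-5p (chr11:78073010-78073032, plus strand): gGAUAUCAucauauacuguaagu
mmu-miR-144-3p (chr11:78073047-78073066, plus strand): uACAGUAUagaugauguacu
mmu-miR-451a (chr11:78073186-78073207, plus strand): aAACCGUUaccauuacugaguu

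The promoters of these genes share features that the choice by symbol did not use. RefSeq promoters, 250 bases before to 50 bases after the annotated start, matched 30 of the 35 measured genes. The CHR letters TTTGAA, on either strand, stood in 23 of these 30 genes (76.7%), in 50.8% of 63 other mitotic genes, in 19.4% of 36 DNA replication genes and in 15.7% of 14452 measured genes with a promoter. In 22 of the 30 a match lay from 100 bases before to 50 bases after the start. CCAAT, the box bound by NF-Y, stood on either strand in 22 of the 30 (73.3%), against 42% of the measured genes with a promoter, and 20 of the 30 held both motifs (66.7%), against 7.36%. Neither motif contains the other. Of the following promoters, Cenpf, Anln and Ect2 are shown because they lay among the lower genes in KO arrays, and Cdc20 because it lay higher. TTTGAA and CCAAT matches on either strand are in capitals (GRCm38.p6, read in the direction of the gene).
Cenpf (chr1:189688037-189688336, minus strand): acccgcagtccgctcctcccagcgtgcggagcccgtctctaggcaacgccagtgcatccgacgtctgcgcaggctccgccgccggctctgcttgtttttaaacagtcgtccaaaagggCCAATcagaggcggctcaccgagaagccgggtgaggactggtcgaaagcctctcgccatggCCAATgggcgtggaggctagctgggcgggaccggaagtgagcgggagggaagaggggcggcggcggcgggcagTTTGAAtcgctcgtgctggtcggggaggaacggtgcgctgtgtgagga
Anln (chr9:22389157-22389456, minus strand): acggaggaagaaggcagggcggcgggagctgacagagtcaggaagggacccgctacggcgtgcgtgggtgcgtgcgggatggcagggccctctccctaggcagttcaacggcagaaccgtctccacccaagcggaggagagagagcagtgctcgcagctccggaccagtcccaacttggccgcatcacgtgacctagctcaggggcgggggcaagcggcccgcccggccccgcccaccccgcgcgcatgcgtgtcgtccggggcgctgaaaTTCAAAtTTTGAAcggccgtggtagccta
Ect2 (chr3:27153805-27154104, minus strand): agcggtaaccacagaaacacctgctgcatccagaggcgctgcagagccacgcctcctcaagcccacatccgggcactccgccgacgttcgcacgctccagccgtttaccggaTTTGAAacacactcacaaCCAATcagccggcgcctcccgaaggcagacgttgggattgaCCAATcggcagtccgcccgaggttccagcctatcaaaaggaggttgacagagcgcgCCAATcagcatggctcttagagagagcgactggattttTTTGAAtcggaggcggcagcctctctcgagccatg
Cdc20 (chr4:118437294-118437593, minus strand): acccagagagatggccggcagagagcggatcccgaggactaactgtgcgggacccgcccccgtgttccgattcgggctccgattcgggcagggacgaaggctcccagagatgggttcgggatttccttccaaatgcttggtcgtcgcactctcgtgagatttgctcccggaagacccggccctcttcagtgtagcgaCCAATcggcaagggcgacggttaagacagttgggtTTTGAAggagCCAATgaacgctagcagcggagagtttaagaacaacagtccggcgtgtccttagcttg
The match in Cenpf began at base 3 and those in Anln at bases 22 and 29 after the start, while the match in Cdc20 began 18 bases before it. Anln had no CCAAT in this window. Among these 30 genes the medians with and without the motif were alike, and no test was made. The median difference was -0.11 over the 23 mitosis genes with TTTGAA, of which 16 lay lower in KO. It was -0.11 over the 7 without it, of which 7 lay lower. Aurkb, Kif20a, Tpx2, Ccna2 and Incenp had no promoter here and are not in these counts. All of them lay lower, at -0.78, -0.39, -0.22, -0.15 and -0.12.

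**Figure D1:**
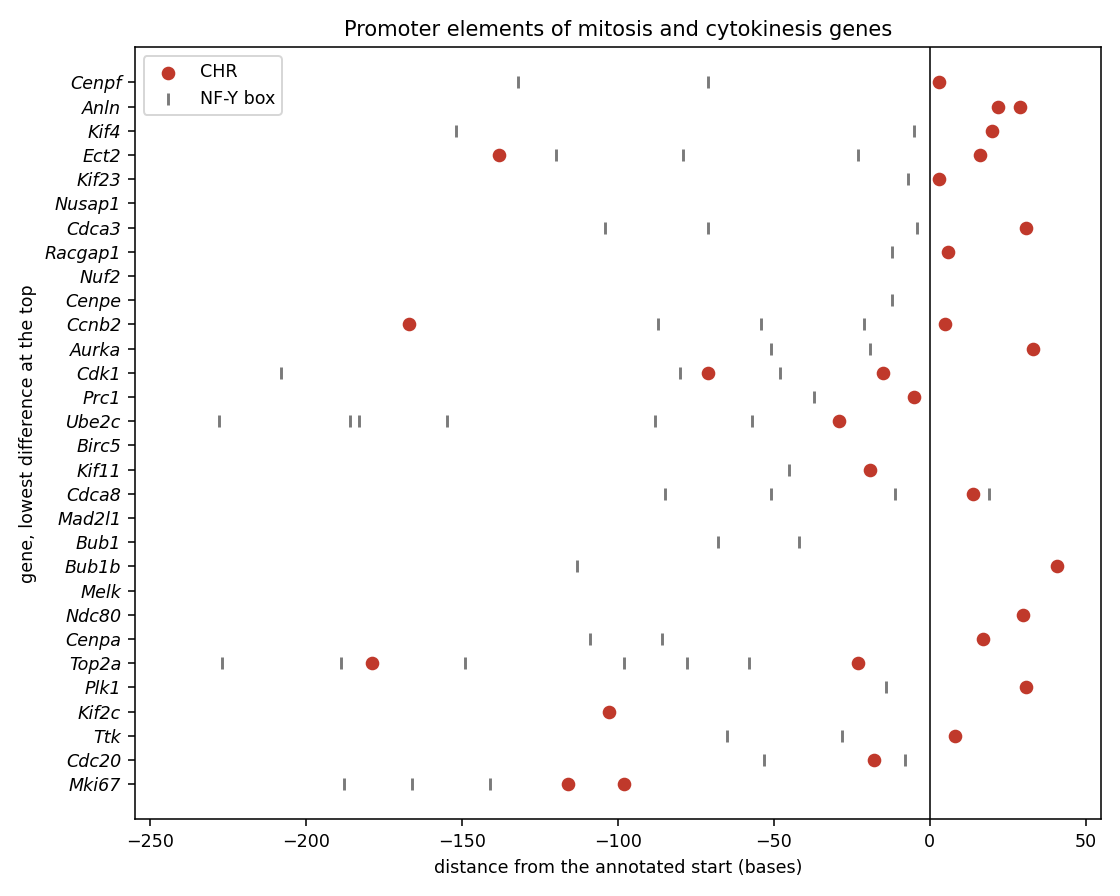
Positions of the CHR motif (red points) and of the NF-Y box (grey bars) in the promoters of 30 mitosis and cytokinesis genes, in bases from the annotated start, with genes ordered from the lowest KO minus WT difference at the top. In 22 genes, spread from the top of that order to the bottom, a CHR match lies from 100 bases before to 50 bases after the start.

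Most of these transcripts lay slightly lower in KO erythroblasts. Of 35 genes, 28 had a negative difference (log2 intensity, KO minus WT), 6 a positive one and Cenpa 0.00, and their median was -0.13. Over all 18193 genes the median was -0.04 and 55.8% were lower. Mitosis genes gave bright signals, with means of 9.38 to 12.71 on the log2 scale, and the 4637 genes within that range had a median of 0.02, with 45.7% lower. In 18 of the 35 genes every KO value lay below every WT value, and in 1 gene, Cdc20, above; over all genes these shares were 16.2% and 12.5%, and over genes of like level 17.8% lay below.

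On the brightest probe set of each gene, none of the 35 passed the test. Limma called 0 of the 35 genes at an adjusted p under 0.05, where it called 0.148% of all genes lower and 0.236% higher (0.385% in all, and 0.355% of probe sets). At an unadjusted p under 0.05, 8 were lower and 0 higher, against 12.7% and 8.34% of all genes, and 10% and 12.4% of genes at like level. These 8 were Cenpf, Aurkb, Anln, Kif20a, Ect2, Cdca3, Kif4 and Nusap1. With an intensity trend and robust prior, limma called 6 genes lower (Cenpf, Aurkb, Anln, Cdca3, Nusap1 and Ect2, adjusted p = 0.0024, 0.0081, 0.015, 0.0298, 0.039 and 0.0391), where it called 2.04% of all genes lower and 2.37% higher. With dim probe sets left out it called Cenpf, Aurkb and Anln (adjusted p = 0.0231, 0.0301 and 0.046), against 1.83% of the genes then tested lower and 2.56% higher. With all probe sets of a gene averaged it called Aurkb (adjusted p = 0.0051), against 0.291% of genes lower and 0.412% higher. The 95% interval of the difference lay within 0.5 of 0 in 27 of the 35 genes.

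The size of the shift depended on the scale. Array medians were 5.62 to 5.68 in KO and 5.73 to 5.78 in WT, and subtracting them raised the median of all genes by 0.11, to 0.07, and that of the mitosis genes to -0.02. Then 20 of 35 genes lay lower in KO, and 7 of 35 (Aurkb, Cenpf, Kif20a, Nusap1, Cdca3, Anln and Ect2) had every KO value below every WT value, against 8.84% of all genes. That step moves the difference of every gene by the same amount, so the distance between the 2 medians had to stay at -0.10. That distance was -0.12 after another quantile normalization and -0.14 after cyclic loess.

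**Figure D2:**
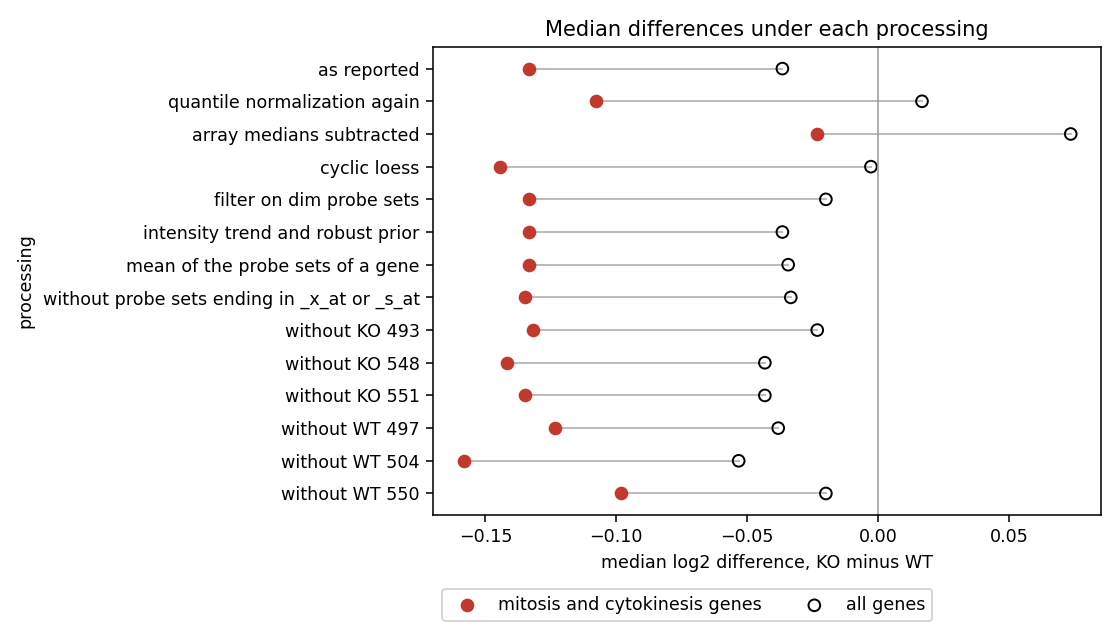
Median log2 difference, KO minus WT, of the mitosis and cytokinesis genes (red) and of all genes (open circles) under each processing of the values, and with each mouse left out. The red point lies left of the open circle in each row, and both move to the right when array medians are subtracted, to -0.02 and 0.07. Not every row is a separate check. Subtracting array medians cannot change the distance between the points, and the fit with an intensity trend leaves every difference as it was.

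Cyclins and their kinase drive entry into mitosis, and the 3 measured members lay lower by a small and even amount. Cdk1, the kinase that starts mitosis, read 12.62, 12.58 and 12.64 in KO 493, 548 and 551, against 12.79, 12.71 and 12.74 in WT 497, 504 and 550. Ccnb2, a B-type cyclin that activates it, read 12.22, 12.14 and 12.11 in KO and 12.32, 12.30 and 12.30 in WT. Ccna2, cyclin A2 of S phase and G2, read 12.33, 12.37 and 12.33 in KO and 12.49, 12.42 and 12.57 in WT. The groups did not overlap in any of the 3, yet the differences were -0.13 to -0.15 with adjusted p of 0.421 to 0.47. With array medians subtracted, Cdk1 was at -0.02, and Ccnb2 and Ccna2 at -0.04. In none of them did every KO value then lie below every WT value.

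The chromosomal passenger complex corrects faulty spindle attachments and then directs the cleavage furrow. Its kinase Aurkb had the lowest difference of all the mitosis genes: 9.65, 9.74 and 9.51 in KO 493, 548 and 551, against 10.49, 10.22 and 10.54 in WT. The KO mean was 9.63 ± 0.12 and the WT mean 10.42 ± 0.17 (SD, n = 3 each). They differed by -0.78 ± 0.13 (SE, limma adjusted p = 0.0672), and the KO level was 0.581 of the WT level. All 3 KO values lay well under the lowest WT value, by more than either group's spread. On their brightest probe sets, the partners of Aurkb stayed close to WT. Incenp, the scaffold of the complex, read 12.45, 12.57 and 12.47 in KO and 12.59, 12.59 and 12.66 in WT. Birc5, which encodes survivin, read 12.58, 12.54 and 12.55 in KO and 12.64, 12.67 and 12.68 in WT. Cdca8, which encodes borealin, read 12.30, 12.35 and 12.29 in KO and 12.41, 12.36 and 12.42 in WT. In each of these the groups did not overlap, with differences of -0.12, -0.11 and -0.08. With array medians subtracted Birc5 and Cdca8 turned slightly positive and Incenp was at -0.0066. In none of these partners did every KO value then lie below every WT value. Dimmer probe sets of Incenp lay at -0.13 to -0.52 (limma adjusted p = 0.216 for the lowest), and those of Cdca8 at -0.15 and -0.20.

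Aurkb has a second probe set, which read 7.30, 7.52 and 7.25 in KO, against 10.08, 9.81 and 10.24 in WT. It fell by 2.69 ± 0.15 (limma adjusted p = 0.0042), to 0.155 of the WT signal, so both probe sets were lower but by very different amounts. Both carry suffixes (_s_at and _x_at) that mark probes shared with other transcripts, and Aurkb has no value without such probe sets. It is 1 of 3 mitosis genes on chromosome 11, which also holds the deleted locus. Of its 20 nearest measured neighbours (10 on either side), 15 lay lower in KO, with a median of -0.11 and differences of -0.54 to 0.37. Limma called 0 of the 20, where it called 0.385% of all genes. Counting both directions together, 5 had an unadjusted p under 0.05, to be set beside 12.7% of all genes lower plus 8.34% higher. The other mitosis genes of that chromosome were Birc5 and Top2a, at -0.11 and 0.01. Without these 3 genes, 26 of 32 lay lower, with a median of -0.13.

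At the kinetochore, where spindle fibres grip the chromosome, 7 of 8 genes lay lower (3 of 8 with array medians subtracted), and Cenpf stood apart. Cenpf, a large protein of the outer kinetochore that accumulates in G2, read 10.71, 10.78 and 10.74 in KO and 11.30, 11.29 and 11.37 in WT. The difference was -0.58 ± 0.09 (SE, limma adjusted p = 0.0663). The gap between the groups was many times the SDs of 0.04 in KO and 0.04 in WT. Its other probe sets were at -0.64 and -0.62 (adjusted p = 0.0912 and 0.0991), also with no overlap. Nuf2, of the NDC80 complex that binds microtubules, read 11.31, 11.31 and 11.44 in KO and 11.56, 11.47 and 11.55 in WT. Cenpe, a kinesin of the kinetochore, read 11.32, 11.28 and 11.31 in KO and 11.43, 11.33 and 11.65 in WT, so that its groups all but touched, at 11.32 and 11.33. The genes of the spindle checkpoint overlapped between the groups: Bub1 at -0.05, Bub1b at -0.02 and Mad2l1 at -0.05. So did Ndc80 at -0.02 and Cenpa, the centromeric histone, at 0.00 ± 0.10 (SE).

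Of 6 kinases and spindle assembly factors, 4 lay lower (3 with array medians subtracted). Nusap1, which bundles spindle microtubules, read 12.08, 11.91 and 12.02 in KO and 12.24, 12.26 and 12.24 in WT (difference -0.24, adjusted p = 0.24). Tpx2, the activator of Aurora A on the spindle, read 11.62, 11.68 and 11.62 in KO and 11.89, 11.75 and 11.94 in WT (difference -0.22, adjusted p = 0.289). Neither gene's direction held across its probe sets. A second Tpx2 probe set, nearly as bright, read 11.64, 11.66 and 11.58 in KO and 11.30, 11.26 and 11.48 in WT, a difference of 0.28, and the second of Nusap1 was at 0.27. Aurka, the Aurora A kinase itself, was at -0.14, with KO 548 and KO 551 above the lowest WT array. Plk1, the polo kinase that acts throughout mitosis, was at 0.02, and Melk, a kinase of proliferating cells, at -0.02. Ttk, the kinase that starts the spindle checkpoint, read 10.07, 10.27 and 10.36 in KO and 10.36, 10.09 and 10.06 in WT, with full overlap.

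Among motor proteins of the kinesin family, 4 of 5 lay lower (3 with array medians subtracted). Kif20a, which carries the passenger complex to the spindle midzone, read 9.82, 9.59 and 9.57 in KO and 10.01, 9.93 and 10.20 in WT (difference -0.39 ± 0.13, adjusted p = 0.177). Kif4, a chromosome-bound motor of the midzone, read 10.48, 10.37 and 10.24 in KO and 10.67, 10.53 and 10.78 in WT (difference -0.30 ± 0.12, adjusted p = 0.236). Neither gene's groups overlapped. Kif23, the motor of centralspindlin, was at -0.26 with 1 KO value above the lowest WT value, while a second probe set was at -0.44. The other, at -0.49, was dim, with a mean of 4.23 under the arrays' 25th percentile of 4.30. Kif11, which pushes the spindle poles apart, was at -0.10, and its 2 dimmer probe sets at -0.25 and -0.32. Kif2c, which takes microtubules apart at the centromere, read 9.48, 9.31 and 9.40 in KO and 9.41, 9.25 and 9.44 in WT, at 0.03.

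All 4 cytokinesis genes lay lower, also with array medians subtracted. Anln, the actin-binding anillin that lines the cleavage furrow, read 10.59, 10.75 and 10.72 in KO and 11.13, 11.06 and 11.18 in WT. This is a difference of -0.44 ± 0.10 (SE, limma adjusted p = 0.113), or 0.739 of the WT level. A second, dimmer probe set of Anln was at -0.05. Ect2, which activates RhoA at the furrow, read 10.93, 10.90 and 10.87 in KO and 11.14, 11.20 and 11.19 in WT, a difference of -0.28 ± 0.09 (adjusted p = 0.186). Both genes were tight within each group, with no KO value near a WT value. Prc1, which crosslinks midzone microtubules, read 12.17, 12.24 and 12.21 in KO and 12.36, 12.26 and 12.40 in WT. Racgap1, the partner of Kif23, was at -0.20 and overlapped, through WT 504.

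Genes grouped under mitotic exit and ubiquitin went both ways. Cdca3, a trigger of WEE1 degradation at mitotic entry, read 12.27, 12.15 and 12.14 in KO and 12.45, 12.40 and 12.44 in WT (difference -0.24, adjusted p = 0.234). Cdc20, the activator of the anaphase-promoting complex, was the only gene with every KO value higher: 11.74, 11.90 and 11.84 in KO, against 11.64, 11.59 and 11.73 in WT. Its difference was 0.17 ± 0.10 (adjusted p = 0.393), and its other probe sets were at 0.21 and 0.18. Ube2c, the ubiquitin-conjugating enzyme of that complex, was at -0.11. The genes of chromosome structure lay near or above WT. Top2a, the topoisomerase that untangles chromosomes, was at 0.01. Mki67, the Ki-67 protein that coats mitotic chromosomes, read 12.32, 12.36 and 13.95 in KO and 12.57, 12.48 and 12.58 in WT. Its positive difference of 0.33 ± 0.42 rests on KO 551; without that array it was -0.20. The 2 other KO values lay under all WT values, and Mki67 has 1 probe set.

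**Figure D3:**
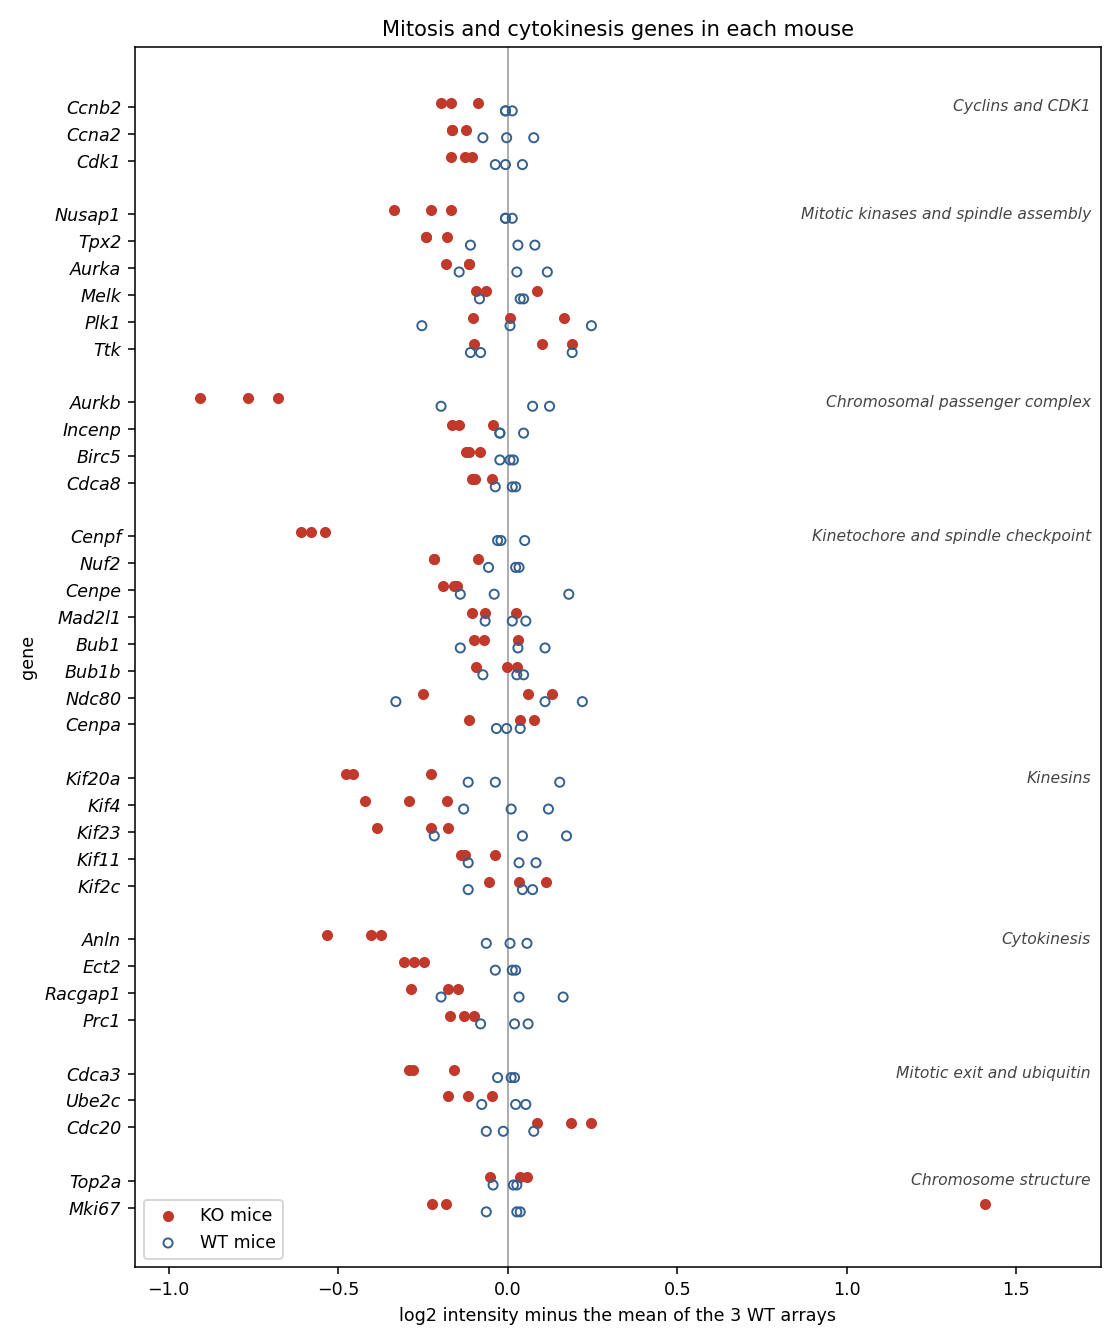
Log2 intensity of 35 mitosis and cytokinesis genes in each mouse, minus the mean of the 3 WT arrays for that gene, with KO mice as filled red points above WT mice as open blue circles and genes grouped by role. KO points of Aurkb, Cenpf and Anln stand clear on the left, and the lone point at the right is KO 551 for Mki67, at 13.95 before subtraction.

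The spread between mice was small beside the larger differences and about as large as the smaller ones. The median SD over genes was 0.07 in KO and 0.07 in WT. Among KO mice, deviations from the WT mean, averaged over the 35 genes, were -0.15, -0.16 and -0.12 in KO 493, 548 and 551. Among WT mice they were 0.02, -0.08 and 0.06 in WT 497, 504 and 550. WT 504 was the lowest WT array in 27 of 35 genes, and it stood nearest to the KO arrays.

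Of the 35 genes, 22 have several probe sets. Of 39 probe sets not used above, 29 lay lower in KO, against 55.8% of all genes on their brightest probe sets. The probe set of Aurkb described above was the only one called by limma, which called 0.355% of all probe sets. At an unadjusted p under 0.05, 10 of the 39 were lower and 2 higher, against 12.7% and 8.34% of all genes. The higher ones were those of Tpx2, described above, and of Bub1, at 0.96 (adjusted p = 0.165), against -0.05 for its brighter probe set. Cenpa had a probe set at -0.90 (adjusted p = 0.126) beside its brightest at 0.00, and Top2a one at -0.46 (adjusted p = 0.153) beside 0.01. For Tpx2, Bub1, Cenpa and Top2a, among others, the choice of probe set decides the value.

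**Figure D4:**
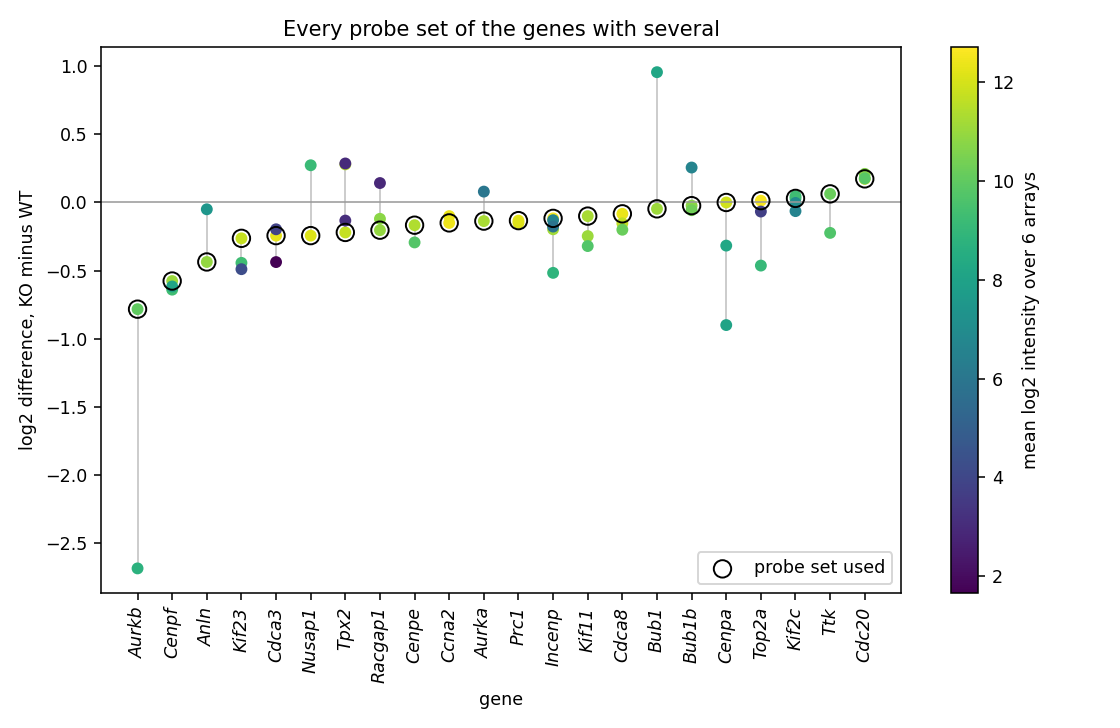
Log2 difference, KO minus WT, of every probe set of the 22 genes with several, coloured by mean log2 intensity over 6 arrays, with the probe set used for the gene circled. Probe sets of Cenpf and Cdc20 lie close together, while those of Aurkb (-0.78 and -2.69) and Bub1 (-0.05 and 0.96) are far apart.

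A list of 88 other mitotic genes, of which 81 were measured under their symbols, was also mostly lower in KO. Limma called 0 of them, where it called 0.385% of all genes. At an unadjusted p under 0.05, 24 were lower and 1 higher, against 12.7% and 8.34% of all genes. The fit with an intensity trend called 14 lower and 1 higher, against 2.04% and 2.37% of all genes. The median of the 81 genes was -0.16, and 66 lay lower, against 55.8% of all genes. In 44 every KO value lay below every WT value, against 16.2% of all genes. Cep55, which completes the final cut between daughter cells, read 8.28, 8.10 and 8.25 in KO and 9.06, 8.68 and 9.01 in WT (difference -0.71, adjusted p = 0.0835). Depdc1a was at -0.62 (adjusted p = 0.0651) and Kif14, a kinesin of cytokinesis, at -0.60 (adjusted p = 0.0724). Nek2, a kinase that parts the centrosomes, lay the other way, with 10.59, 10.65 and 10.64 in KO and 10.16, 10.03 and 10.19 in WT (difference 0.50, adjusted p = 0.0884).

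Genes of earlier cell cycle phases were read in the same way, and no test was made between the lists. DNA replication genes (44 measured, 0 called) had a median of -0.06, with 1 at an unadjusted p under 0.05: Orc1, a subunit of the origin recognition complex, at -0.61 (adjusted p = 0.0884). For G1 cyclins, inhibitors and E2F factors (28 measured, 0 called) the median was -0.21, with 11 lower and 2 higher at an unadjusted p under 0.05. They included E2f1 at -0.54 (adjusted p = 0.0937), E2f8 at -0.38 and the CDK inhibitor Cdkn2c at -0.36. E2f5 was at 0.81. Over all genes, limma called 0.385%, and 12.7% were lower and 8.34% higher at an unadjusted p under 0.05. A negative difference was found in 27 of the 44 replication genes and 20 of the 28 G1 genes, against 55.8% of all genes. Every KO value lay below every WT value in 12 and 13 of them, against 16.2% of all genes. It lay above in 0 and 3, against 12.5%. The fit with an intensity trend called 2 and 4 of them lower and 0 higher, against 2.04% and 2.37% of all genes.

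**Figure D5:**
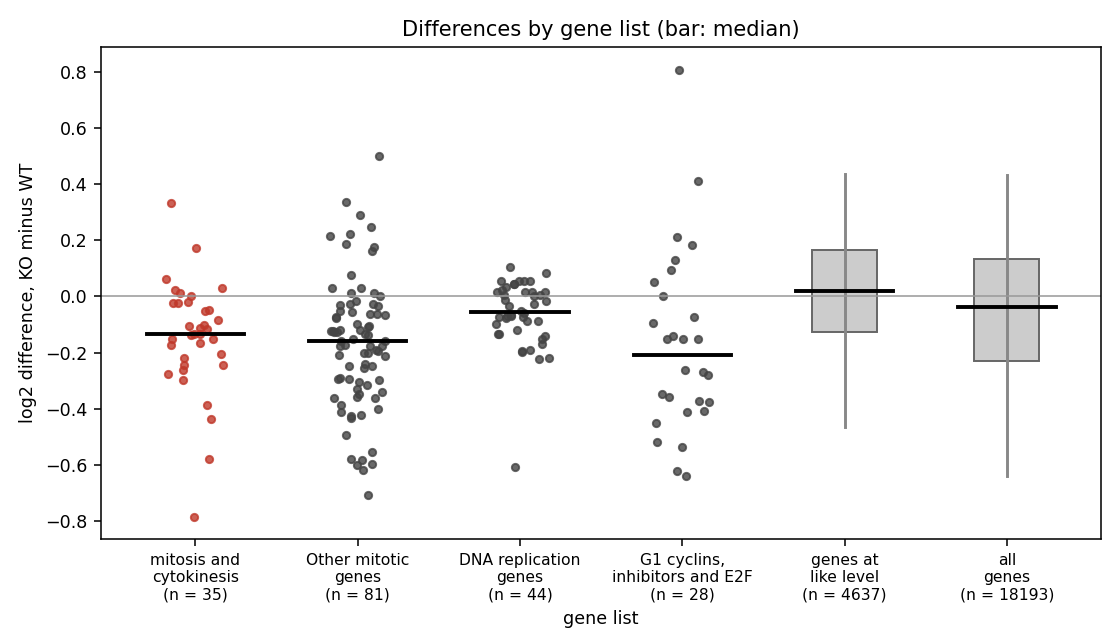
Log2 difference, KO minus WT, of each gene in 4 lists (points, with the median as a bar), beside 4637 genes at like level and all 18193 genes (box from the 25th to the 75th percentile, line from the 5th to the 95th). The mitosis and other mitotic genes sit mostly under 0, with medians of -0.13 and -0.16, against 0.02 for genes at like level. So do the G1 cyclins, inhibitors and E2F factors, with a median of -0.21, while that of the DNA replication genes is -0.06.

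Other values moved with genotype on the same arrays. Of 12 measured erythroid markers, limma called 0, and 11 lay lower in KO (55.8% of all genes), with a median of -0.12. At an unadjusted p under 0.05, 2 were lower and 0 higher, against 12.7% and 8.34% of all genes. These were Sptb at -0.56 (limma adjusted p = 0.1945) and Epb42 at -0.27 (limma adjusted p = 0.2051). Slc4a1, the band 3 anion exchanger, read 13.06, 13.05 and 13.00 in KO and 13.11, 13.10 and 13.12 in WT, and Gata1 differed by 0.01; the probe set of Hba-a1, a haemoglobin gene, was dim in both groups (1.24 to 3.12 in KO, 2.69 to 3.11 in WT). Markers of other marrow cells and of early progenitors, in 7 lists, were lower in KO for 63 of 73 measured genes, with a median of -0.44. The 73 include 14 early progenitor genes, of which 12 lay lower. Whether the sorted erythroblasts themselves express some of the 73 was not tested. Limma called 0 of them. At an unadjusted p under 0.05, 27 were lower and 2 higher, against 12.7% and 8.34% of all genes. Their summed linear intensity was 82907 to 88718 in KO and 97492 to 112388 in WT; the lists had medians of -0.31 for neutrophil, -0.74 for eosinophil, basophil and mast cell, -0.26 for macrophage, -0.54 for B lineage, -0.68 for T and NK, -0.53 for early progenitor and 0.05 for megakaryocyte genes, and 0 of the 73 lay under the 25th percentile of the arrays. The actin control's 3' minus 5' signal was 1.82 to 1.86 in KO and 1.65 to 1.67 in WT, while that of the Gapdh control overlapped, at 1.0 to 1.05 in KO and 1.03 to 1.09 in WT. The part of these values in the lower mitotic signals was not tested. In sorted bulk cells, fewer cells in mitosis and less RNA per cell cannot be told apart.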

How the data were processed

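The authors deposited probe-set intensity values for 6 arrays, 3 per group, made with RMA (version not given) per the submitters' processing notes. RMA makes the probe distributions of arrays alike, which can shrink a shift common to most transcripts. The deposited intensity values were linear, and the log2 of 100% of them had 2 decimals (values within 0.005). Their log2 was tested with no further normalization. After 64 controls were left out, 45037 probe sets entered limma 3.58.1 under R 4.3.3, by lmFit and then eBayes without covariates. P-values were adjusted over all 45037 by Benjamini and Hochberg's method, with a threshold of 0.05. The platform annotation gave 1 gene for 34945 of these probe sets; 932 of its probe sets named several and were left unnamed. The fit was run on simulated data with changes larger than those of the mitosis genes on their brightest probe sets. That run does not show how well differences of their size are found. With 3 mice against 3, an exact permutation test cannot give a p below 0.1, and none was used.

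The number of arrays limits precision. The numbers in the titles are taken to name mice, although no label says so and a tag named mirna construct repeats them. Limma's p-values rest on the spread between these samples, which eBayes draws toward a level shared by all probe sets. Birc5 thus had an SE of 0.09 beside SDs of 0.02 in both groups. The members and gene lists were chosen with earlier results of these data known. Values of each array are given for genes whose groups do not overlap and genes with an unadjusted p under 0.05. They are also given for the 4 genes with the highest difference. From other lists, up to 4 genes with the smallest p are named, and Slc4a1 and Gata1 besides. Promoter and microRNA sequences are RefSeq's (GRCm38.p6). Alternatives were renewed quantile normalization, array medians subtracted, cyclic loess, a filter on dim probe sets, an intensity trend with robust prior, other choices of probe set, and each mouse left out. Dropping chromosome 11, and the counts of genes with no overlap, were added after the data were seen.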

Additional observations from a re-analysis of the deposited data

How the results depend on the processing

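No paired analysis was possible because the groups share no number in their titles. Limma called 160 probe sets and 70 genes; the counts were 411 and 178 with array medians subtracted, 1010 and 472 with dim probe sets left out, and 1593 and 804 with an intensity trend, and 128 genes were called on mean probe sets. Of the mitosis genes 3 were called with the filter, 6 with the trend and 1, Aurkb (-1.74, adjusted p = 0.0051), on mean probe sets. With medians subtracted the mitosis median was -0.023, and 7 genes had all KO values below all WT values. Leaving out 1 mouse at a time gave 8 to 23 called probe sets, 5 to 14 called genes (5 without KO 548, 9 without WT 550, 13 or 14 otherwise), 0 called mitosis genes, medians of -0.16 to -0.10, 26 to 31 lower genes, and 18 to 23 with every KO value below every WT value, as were 20.5% to 25.5% of all genes.

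The median of all genes turned positive with medians subtracted (0.07) and after renewed quantile normalization (0.02). Single genes changed sign too. With medians subtracted, Bub1 was at 0.063, Bub1b at 0.087, Birc5 at 0.0034, Kif11 at 0.010, Cdca8 at 0.027, Ndc80 at 0.090, Mad2l1 at 0.060 and Melk at 0.087. On mean probe sets, Top2a was at -0.17, Bub1 at 0.46, Bub1b at 0.059, Ttk at -0.08, Nusap1 at 0.015 and Tpx2 at 0.053. With 1 mouse left out, Top2a ranged between -0.0083 and 0.047, Plk1 between -0.10 and 0.15, Kif2c between -0.028 and 0.073, Ndc80 between -0.19 and 0.095, Melk between -0.078 and 0.012, Bub1b between -0.060 and 0.012, Bub1 between -0.12 and 0.0083, and Mki67 between -0.20 (without KO 551) and 0.61. The cause of these changes was not tested. Without chromosome 11 the median was -0.13; 19 of the 35 genes had 1 sign under every alternative, while Cenpa, at 0.00 on the deposited values, took both.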
